A study of Mus musculus with 6 samples.

Results

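The CCN family and a set of YAP/TAZ target genes were examined across control and ascorbic acid (AA) treated osteoblasts. The set held 10 genes: the matricellular genes Ccn1, Ccn2, Ccn3, Ccn4 and Ccn5 (also called Cyr61, Ctgf, Nov, Wisp1 and Wisp2) and the target genes Ankrd1, Amotl2, Ajuba, Axl and Lats2. Every probe set whose annotated gene symbol named one of them was taken, which gave 23 of the 45037 probe sets tested. Of these, 22 named the gene alone and 1 named Lats2 together with Xpo4. The genes were put together with their response to AA already known, so the contrast between AA and control in these 23 probe sets is described here and not tested. The samples were MC3T3-E1 subclone 4 cells, a cloned mouse calvarial pre-osteoblast line. The 3 control cultures were left untreated and the 3 AA cultures received AA at 50 µg/ml in the study's methods (50 µg in the sample labels), both in serum-supplemented α-MEM and both collected at day 5. Each RNA was read on its own Affymetrix mouse 430 2.0 array. The labels do not say whether replicates were separate wells or separate experiments, and the paper speaks both of wells in triplicate and of triplicate experiments, so the spread between them, and every p-value below, may be technical.

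CCN proteins are secreted, cysteine-rich matricellular proteins that bind integrins, heparan sulphate and growth factors, and Ccn5 lacks the C-terminal cystine-knot module that the other members carry. In the Hippo pathway, Mst and Lats kinases phosphorylate the coactivators YAP and TAZ and hold them in the cytoplasm. When cells spread or pull on a stiff matrix, YAP and TAZ enter the nucleus, join TEAD transcription factors and switch on genes such as Ccn1, Ccn2 and Ankrd1, and also Lats2, Amotl2 and Ajuba, whose products act back on the pathway. Signals below are the deposited linear values, log2 fold changes are AA over control after quantile normalization with the standard error (SE) from the limma fit, and the brightest probe set of a gene is the one with the highest mean. In these bulk cultures, fewer cells expressing a gene and less RNA per cell cannot be told apart.

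The arrays carried osteoblast markers, as their label says. Of 8 measured osteoblast markers, read by the brightest probe set, 3 were higher in AA and none lower. Of the 8, 6 lay above the median signal of all probe sets. The summed signal of the 8 was 15340 to 18430 on control and 21000 to 28720 on AA arrays. Alpl, Ibsp and Ifitm5 rose (log2 fold change 1.52, 1.53 and 4.43, adjusted p = 0.000464, 0.000549 and 2.06e-05 from limma). Col1a1, a type I collagen gene, was at percentile 99.7 of mean signal. Of its 2 probe sets, 1 passed, the dimmer. On their brightest probe sets Col1a1 (0.11, adjusted p = 0.417), Col1a2 (0.04, 0.804) and Sp7 (0.29, 0.235) did not pass. Nor did Phex (-0.56, 0.644) and Dmp1 (1.58, 0.261), which lay below the median signal. Ankrd1 was first known as a muscle gene, so muscle markers were read too. The summed signal of the 13 was 115 to 142 on control and 102 to 118 on AA arrays. Of the 13, 2 lay above the median signal of all probe sets. They were Des, with means of 44.1 on control and 40.1 on AA arrays, and Actc1, with 20.0 and 14.7. The defining muscle regulators Myod1, Myog and Myf5 had mean signals of 0.314 to 5.10 in both groups. Myl2 alone of these 13 passed, and was lower in AA, from 17.2 to 1.74. None of 7 endothelial and 5 measured adipocyte markers lay above the median signal. Their summed signals were 35.3 to 38.4 and 12.4 to 16.2 on control arrays and 25.01 to 35.9 and 15.7 to 18.1 on AA arrays, and Vwf alone passed, lower in AA (5.35 to 0.499). Macrophage markers summed to 49.9 to 60.5 and 106.9 to 125.0, and 1 of 7 lay above the median signal. It was Csf1r, which rose from 24.5 to 87.4 (adjusted p = 0.00168 from limma), while Ptprc, Itgam, Tyrobp, Fcgr1 and Adgre1 had mean signals of 1.19 to 6.67. Cd68 had 12.7 on control and 13.1 on AA arrays. The part of these markers in the values below was not tested. Control replicate 3 had the highest 3' to 5' ratios of the Gapdh and actin control probe sets.

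Promoter sequences are shown for some of the genes with a window at hand, because TEAD factors reach their targets through a short DNA motif. RefSeq windows of 250 bases before to 50 after a transcript start (GRCm38.p6) were at hand for 6 of the 10 genes: Ccn1, Ankrd1, Amotl2, Ajuba, Axl and Lats2. None was at hand for Ccn2, Ccn3 and Ccn5, which were lower in AA, or for Ccn4, which was higher. The motif searched was GGAATG on either strand (read as CATTCC on the other). It was found in the first window of each of these 6 genes, beside 14.7% of all 32851 windows and 16.6% of all 27025 genes. A second Lats2 window, at another start, held none. Ankrd1 and Ajuba each held 2 copies, which 1.36% of all windows did. The genes were taken as CCN genes or YAP/TAZ targets, so nothing is read from these shares. An AP-1 motif, TGANTCA, and a CArG box, the site of serum response factor, were found in none of the 7 member windows. They were in 7.81% and 1.63% of all windows, and 7 windows are too few to read a difference. The 250 bases upstream of the start follow, 5′ to 3′ on the strand of the gene, with the TEAD motif in capitals. Ankrd1, which had the largest fall, is at chr19:36119845-36120094 (minus strand). Ajuba, which was lower in AA, is at chr14:54577662-54577911 (minus strand), Amotl2, with a smaller difference, at chr9:102717554-102717803 (plus strand) and Ccn1, with little difference, at chr3:145649986-145650235 (minus strand).
Ankrd1: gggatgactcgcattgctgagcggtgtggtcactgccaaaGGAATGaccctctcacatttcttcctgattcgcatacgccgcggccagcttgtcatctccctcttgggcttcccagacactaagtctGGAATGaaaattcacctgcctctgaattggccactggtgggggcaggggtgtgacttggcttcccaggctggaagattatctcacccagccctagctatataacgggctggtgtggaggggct
Ajuba: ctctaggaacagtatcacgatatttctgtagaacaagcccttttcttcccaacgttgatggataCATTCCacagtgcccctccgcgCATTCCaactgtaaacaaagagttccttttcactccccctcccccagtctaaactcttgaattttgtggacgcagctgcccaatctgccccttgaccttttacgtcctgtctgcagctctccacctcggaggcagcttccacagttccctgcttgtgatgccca
Amotl2: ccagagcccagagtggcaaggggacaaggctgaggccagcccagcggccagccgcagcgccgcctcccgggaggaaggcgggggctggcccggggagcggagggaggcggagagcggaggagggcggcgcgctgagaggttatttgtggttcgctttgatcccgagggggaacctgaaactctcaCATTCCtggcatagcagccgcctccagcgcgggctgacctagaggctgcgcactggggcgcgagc
Ccn1: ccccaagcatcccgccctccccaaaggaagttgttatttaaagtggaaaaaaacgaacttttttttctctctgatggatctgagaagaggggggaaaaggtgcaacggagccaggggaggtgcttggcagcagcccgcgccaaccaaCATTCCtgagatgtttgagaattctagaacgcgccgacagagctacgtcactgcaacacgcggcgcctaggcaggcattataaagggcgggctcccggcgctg
The copies began 210 and 123 bases before the start in Ankrd1, 186 and 164 in Ajuba, 103 in Ccn1, 65 in Amotl2 and 233 in Axl, and in Lats2 at base 5 of the transcript. A match is a run of letters and not evidence of binding. Genes with a match ranged from the largest fall of the set to no difference.

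**Figure D1:**
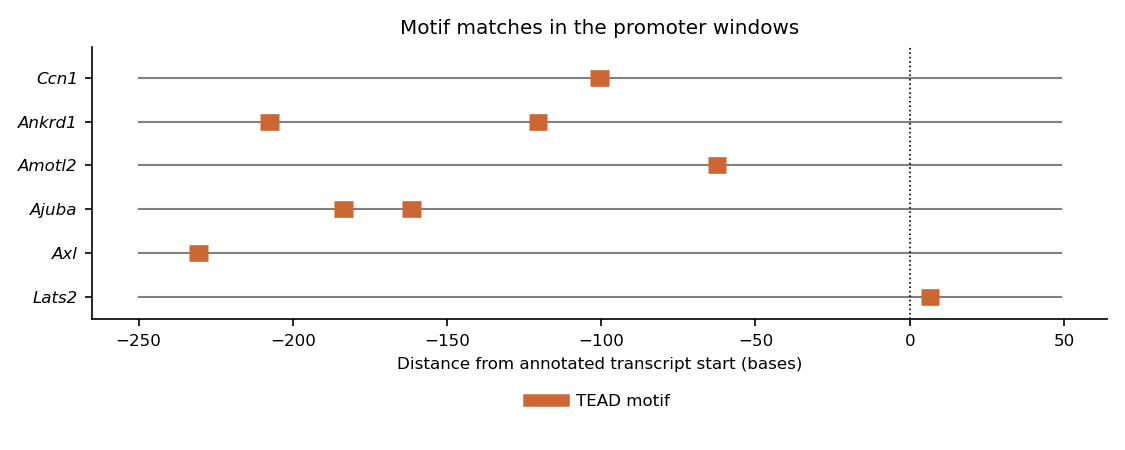
Matches of the TEAD motif (orange blocks) in the first promoter window of 6 genes, by distance from the annotated transcript start in bases, with the start at the dotted line. Ankrd1 and Ajuba hold 2 matches each and the others 1, and the match in Lats2 lies just after the start.

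Across the set, 7 probe sets of 5 genes (Ccn2, Ccn3, Ccn5, Ankrd1 and Ajuba) were called lower, beside 2.5% of all probe sets, where the call is limma's adjusted p under 0.05. Called higher were 2 probe sets of 1 gene (Ccn4), beside 2.71%. The other 14 were not called. The 9 calls are 39.1% of the 23, beside 5.2% of all probe sets, and nothing is read from the difference because the genes were chosen on this contrast. Read by the brightest probe set of each gene, 6 of 10 were called, beside 7.89% of all genes, with the same reservation, and the median log2 fold change was -0.38, against -0.02 over all genes. On the deposited signals, 7 probe sets had all control arrays above all AA arrays, 3 had the reverse and 13 overlapped. Groups did not overlap in 22.8% of all probe sets, with control above in 11.8% and AA above in 11%. Of the 23, 20 lay above the median signal of the array. The dim ones, 1 of Axl and 2 of Lats2, are given below for completeness.

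**Figure D2:**
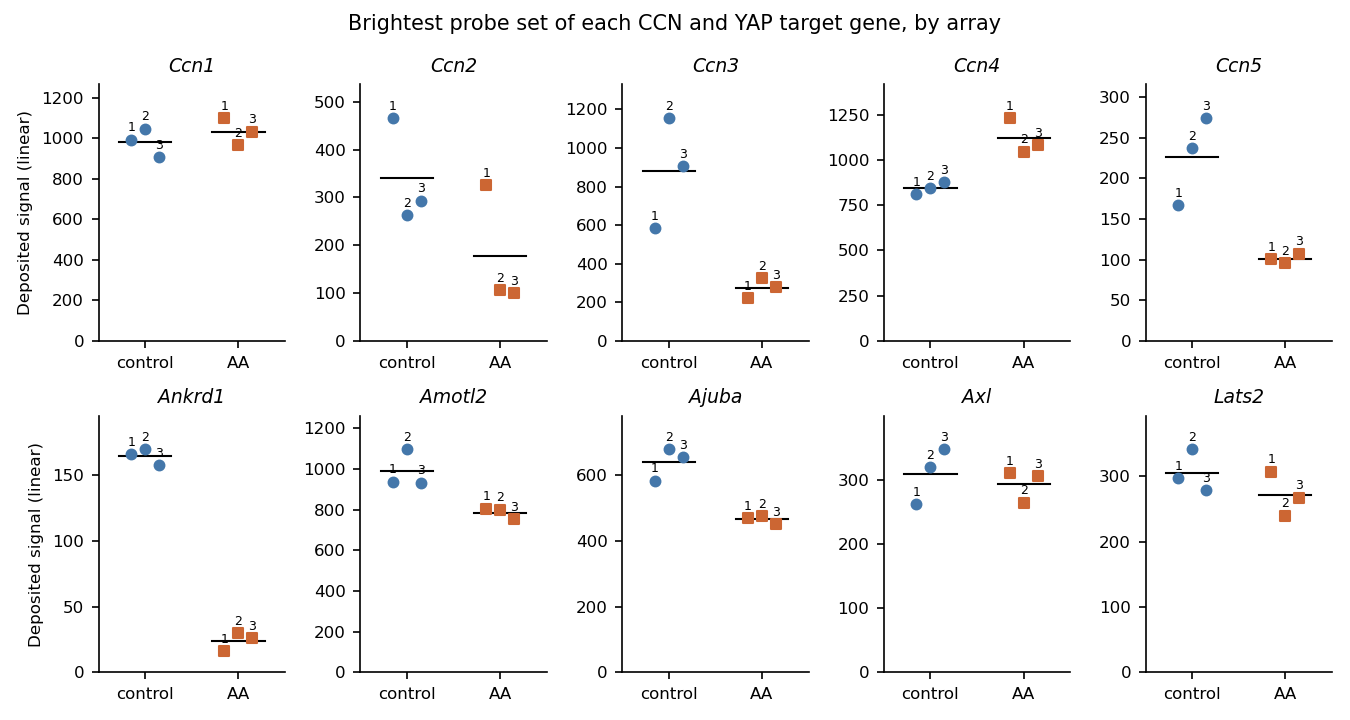
Deposited signal (linear scale) of the brightest probe set of each of the 10 genes on the 3 control arrays (circles) and 3 AA arrays (squares), numbered by replicate, with a line at each group mean. Ankrd1, Ccn3, Ccn5, Ajuba and Amotl2 are lower on every AA array, Ccn4 is higher on every AA array, and Ccn2 is highest on the replicate 1 array of each group.

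The CCN genes did not move as a family. Ccn3, Ccn5 and Ccn2 were lower in AA cultures, Ccn4 was higher and Ccn1 showed little difference. Ccn3, which restrains osteoblast differentiation and bone morphogenetic protein signals, had control signals of 586, 1156 and 907 and AA signals of 221, 327 and 278 on its brighter probe set. No AA array reached the lowest control array. The log2 fold change was -1.63 (SE 0.11), a 3.09-fold fall, and the second probe set gave -1.60 (SE 0.11). Control replicate 1 was the lowest control array on both probe sets, and AA replicate 1 the lowest AA array, so the within-replicate differences were close, at -1.36, -1.82 and -1.71 for the brighter.

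Ccn5, the member without the C-terminal module, had control signals of 167, 237 and 274 and AA signals of 101, 95.9 and 108. The groups did not overlap, and the AA arrays were far closer together (SD 5.88, n = 3) than the control arrays (SD 54.5, n = 3). The log2 fold change was -1.10 (SE 0.15).

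Ccn2, known as connective tissue growth factor and a direct YAP and TGF-beta target, had control signals of 466, 263 and 293 and AA signals of 326, 106 and 99.5 on its only probe set. The replicate 1 array was the highest of both groups, and AA replicate 1 lay above control replicates 2 and 3, so the groups overlapped. Within each replicate AA was lower, by log2 differences of -0.46, -1.27 and -1.55. The fitted log2 fold change was -1.10 (SE 0.19), -1.66 without AA replicate 1 and the replicate block, and -0.78 without AA replicate 3 and the block. Its call was lost when the block was left out of the fit with all 6 arrays, and also without replicate 2 (-1.01), and was kept without replicate 1 or 3.

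Ccn4, a Wnt target that promotes osteoblast differentiation, was the 1 gene of the set that was higher. Its brighter probe set had control signals of 810, 844 and 877 and AA signals of 1232, 1046 and 1080.2, and the second had 579, 486 and 519 against 903, 700.2 and 743. Neither overlapped between groups. The log2 fold changes were 0.40 (SE 0.09) and 0.58 (SE 0.08). The brighter probe set no longer passed after median centring of the arrays, with 50 added to every signal, or without replicate 1 (0.30) or replicate 2 (0.46).

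Ccn1, a target of YAP and of serum response factor that binds integrins, was read by 4 probe sets. The brightest had control signals of 992, 1046 and 907 and AA signals of 1099.9, 967 and 1031, a log2 fold change of 0.08 (SE 0.09), and the next one 0.04 (SE 0.08). The groups overlapped on both, and after median centring of the arrays the values were 0.02 and -0.03. The other pair, which share 1 annotated transcript accession, gave larger values, 0.40 (SE 0.12) and 0.27 (SE 0.13). On the first of that pair control signals were 341, 242 and 317 and AA signals 391, 391 and 361, with no overlap, and neither passed. The remaining CCN gene, Ccn6, averaged 7.08 (SD 0.900, n = 3) on control arrays and 6.59 (SD 0.649, n = 3) on AA arrays, below the median of the array.

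Ankrd1, a YAP target whose product sits in the nucleus and in the sarcomere of muscle, had the largest difference among the probe sets above the median signal. Its brighter probe set had control signals of 165, 169 and 157 and AA signals of 16.1, 29.7 and 26.2, a 7.07-fold fall (log2 fold change -2.82, SE 0.21). The second had 145, 124 and 77.0 against 16.9, 31.5 and 25.8 (log2 fold change -2.23, SE 0.28). Every AA array lay far below every control array, and close to the median over probe sets of 16.0. With 50 added to every signal the values were -1.53 and -1.13, so the size of the fall depends on how the dim AA signals are treated. On the second probe set control replicate 3 was the lowest control array, and on both AA replicate 1 was the lowest AA array. The other muscle ankyrin repeat genes, Ankrd2 and Ankrd23, did not pass, at 0.09 and 0.13 on the log2 scale.

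By their brightest probe sets, the targets that act back on the Hippo pathway differed less than Ankrd1, and so did Axl. Ajuba, a LIM protein that inhibits Lats kinases, had control signals of 584, 679 and 656 and AA signals of 470.2, 476.5 and 451, a log2 fold change of -0.43 (SE 0.09) with no overlap. The call was lost with 50 added to every signal and without replicate 2 (-0.40) or 3 (-0.38). Amotl2, an angiomotin that binds YAP, had control signals of 937, 1096 and 933 and AA signals of 805, 800.5 and 753. Its groups also did not overlap, and its log2 fold change of -0.32 (SE 0.08) did not pass over all probe sets. Lats2, the kinase, had 296.9, 341 and 278 against 307, 239 and 267 on its brightest probe set, with groups that overlapped and a log2 fold change of -0.14 (SE 0.12). The 5 Lats2 probe sets above the median signal, 1 of them shared with Xpo4, ran from -0.24 to 0.47. The 2 dim ones gave -0.74 (SE 0.42) and 3.02 (SE 0.97), the latter from signals of 0.194 to 7.42, and -0.14 and 0.09 with 50 added. Axl, a receptor tyrosine kinase for the ligand Gas6, had 261, 319 and 347 against 310.1, 264 and 305 on its brighter probe set, with overlap and a log2 fold change of -0.03 (SE 0.12). Its second probe set had signals of 0.977 to 4.06, too dim to read.

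**Figure D3:**
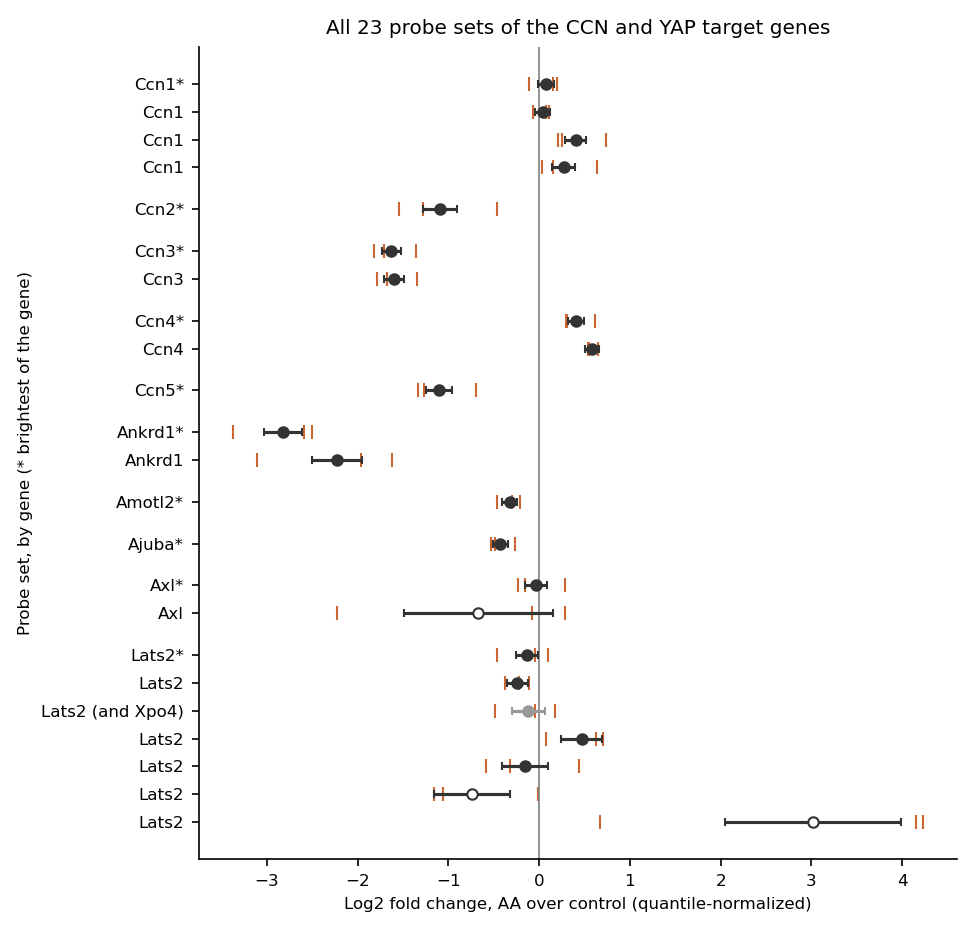
AA over control on the log2 scale for every one of the 23 probe sets, grouped by gene, with bars of 1 SE and orange ticks at the differences within each of the 3 replicates. Open points lie below the median signal, the grey point is the probe set shared with Xpo4, and the probe sets of Ankrd1 (-2.82 and -2.23), of Ccn3 and of Ccn4 lie on 1 side of 0 for each gene while those of Lats2 scatter on both sides.

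Other genes of the pathway were read by their brightest probe set in the fit over all probe sets, in which 4.06% of all genes were higher and 3.83% lower. Their lists, too, were chosen with earlier results of these data known. The counts, medians and p-values of the lists are therefore a description and no independent test. Of 16 further YAP/TAZ targets drawn from a signature of human tumours, 4 fell, 2 rose and 10 did not pass. A negative log2 fold change after normalization was seen in 12. Over the array, 9524 of 18193 genes had a negative log2 fold change. The median log2 fold change of these targets was -0.59, against -0.02 over all genes. Gadd45a, a growth arrest and stress gene, fell from 194, 194 and 232 to 78.8, 67.7 and 87.1 (log2 fold change -1.39, SE 0.12, adjusted p = 0.000785 from limma). F3, tissue factor, fell from 186, 217 and 217 to 96.6, 103 and 105 (-0.99, SE 0.11, adjusted p = 0.00237). Both kept their call in 15 of 17 alternative settings. Rbms3, an RNA-binding protein, fell on 2 of its 4 probe sets (-0.58, adjusted p = 0.00614), and Tgfb2, a ligand that induces Ccn2, on 1 of 4 (-0.96, adjusted p = 0.0426). Tgfb2 no longer passed with 50 added, or without replicate 2 or 3, with adjusted p = 0.103, 0.203 and 0.0952 in turn from limma.

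The pair that rose were Nt5e and Ccdc80. Nt5e, the ecto-enzyme CD73 that makes adenosine, had control signals of 203, 93.3 and 77.7 and AA signals of 336, 234 and 197 (log2 fold change 1.16, SE 0.14, adjusted p = 0.00361 from limma). The replicate 1 array was the highest of each group, as for Ccn2, and the groups overlapped. Without the replicate block the adjusted p was 0.0901. Ccdc80, a secreted matrix protein, went from 1438 ± 146 (SD, n = 3) to 1946 ± 354 (SD, n = 3) and passed on both of its probe sets (0.40, adjusted p = 0.0203 from limma, and not past the threshold without the block). Its call is marginal: it was also lost after median centring (adjusted p = 0.139 from limma) and without replicate 1 (0.0873) or 2 (0.0713). Leaving out any single array together with the block lost it too.

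Among the factors themselves, 2 of 10 fell and none rose. Yap1 had control signals of 1244, 1055 and 1070.4 and AA signals of 860.0, 867 and 893, which did not overlap (log2 fold change -0.36, SE 0.08, adjusted p = 0.0464 from limma). Its call is marginal: it was kept in 3 of 17 alternative settings, and on the signals as deposited the adjusted p was 0.0617. Tead1 fell from 848, 999 and 1059 to 641, 622 and 698 (-0.55, SE 0.09, adjusted p = 0.0105), a call lost without replicate 2, when the adjusted p was 0.0841. Wwtr1, which encodes TAZ, gave 0.12 on its brightest probe set (adjusted p = 0.458) and 0.69 on the dimmest of 3 (adjusted p = 0.0151), so it was not lower on any. Tead2, Tead3 and Tead4 did not pass, with values of 0.05, 0.14 and -0.23 (adjusted p = 0.891, 0.727 and 0.796).

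Of 24 measured Hippo kinases and scaffolds, 3 fell, none rose and 21 did not pass (median log2 fold change -0.17). The core kinase Lats1 differed by -0.18 on the log2 scale (adjusted p = 0.296 from limma). Those that fell are upstream scaffolds and a cadherin: Wwc1, known as Kibra (-0.88, adjusted p = 0.0275), Frmd6, or Willin (-0.47, adjusted p = 0.0226), and the protocadherin Fat4 (-0.91, adjusted p = 0.0456). Fat4 passed on both of its probe sets and Wwc1 on 2 of 4. None of the 3 passed with 50 added to every signal (adjusted p from 0.0505 to 0.105), without replicate 2 (0.0645 to 0.154) or without replicate 3 (0.0540 to 0.0923).

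Paralogues of the target genes did not move together. Of 13, 2 fell and none rose by the brightest probe set. Amot, the founding angiomotin, fell from 1020.3 ± 16.3 (SD, n = 3) to 731 ± 98.8 (SD, n = 3) (log2 fold change -0.48, adjusted p = 0.0181 from limma), while Amotl1 had 0.11 (adjusted p = 0.564). The Amot call was lost without replicate 1 or 2 (adjusted p = 0.0589 and 0.111). Of the LIM proteins related to Ajuba, the focal adhesion protein Zyx fell (-0.68, adjusted p = 0.00671), Lpp had -0.36 (adjusted p = 0.0614), Trip6 0.04 (adjusted p = 0.860) and Wtip 0.33 (adjusted p = 0.132). The dimmer probe set of Zyx went the other way, with 0.82 (adjusted p = 0.338 from limma). Limd1 had 0.43 on its brightest probe set (adjusted p = 0.0559) and 0.44 on its second (adjusted p = 0.0331). The receptors related to Axl, Tyro3 and Mertk, had -0.23 and 0.14 (adjusted p = 0.567 and 0.541).

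Of 16 receptors, growth factors and ligands that bind CCN proteins or Axl, 1 passed. Itga6, the integrin alpha chain that pairs with beta1 as a receptor for Ccn1 and Ccn2, fell from 44.6, 80.6 and 105 to 18.3, 31.1 and 34.7 (log2 fold change -1.43, SE 0.19, adjusted p = 0.00459 from limma) on the brighter of 2 probe sets, with -0.68 after 50 was added to every signal. The Itga6 call was kept without any single replicate, but without the block the adjusted p from limma was 0.0477. Leaving out a single array together with the block lost it for every array except control replicate 1, with adjusted p from 0.0684 to 0.159. Gas6 had -0.21 (adjusted p = 0.360). Of 18 genes of serum response factor, its MRTF coactivators and the actin cytoskeleton, which share targets with YAP, 5 fell and none rose (median log2 fold change -0.25). They were Tagln (-0.67, adjusted p = 0.00405), Actg2 (-0.57, adjusted p = 0.00569), Tpm2 (-0.49, adjusted p = 0.00753), Myl9 (-0.34, adjusted p = 0.0313, and 0.117 without the replicate block) and Actn1, the last named after its value was seen. Over the 6 lists together, 17 of 95 genes fell and 2 rose, beside 3.83% and 4.06% of all genes. A negative log2 fold change after normalization was seen in 65 of the 95, beside 9524 of all 18193 genes. Since the lists were chosen with earlier results known, nothing is read from these differences.

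**Figure D4:**
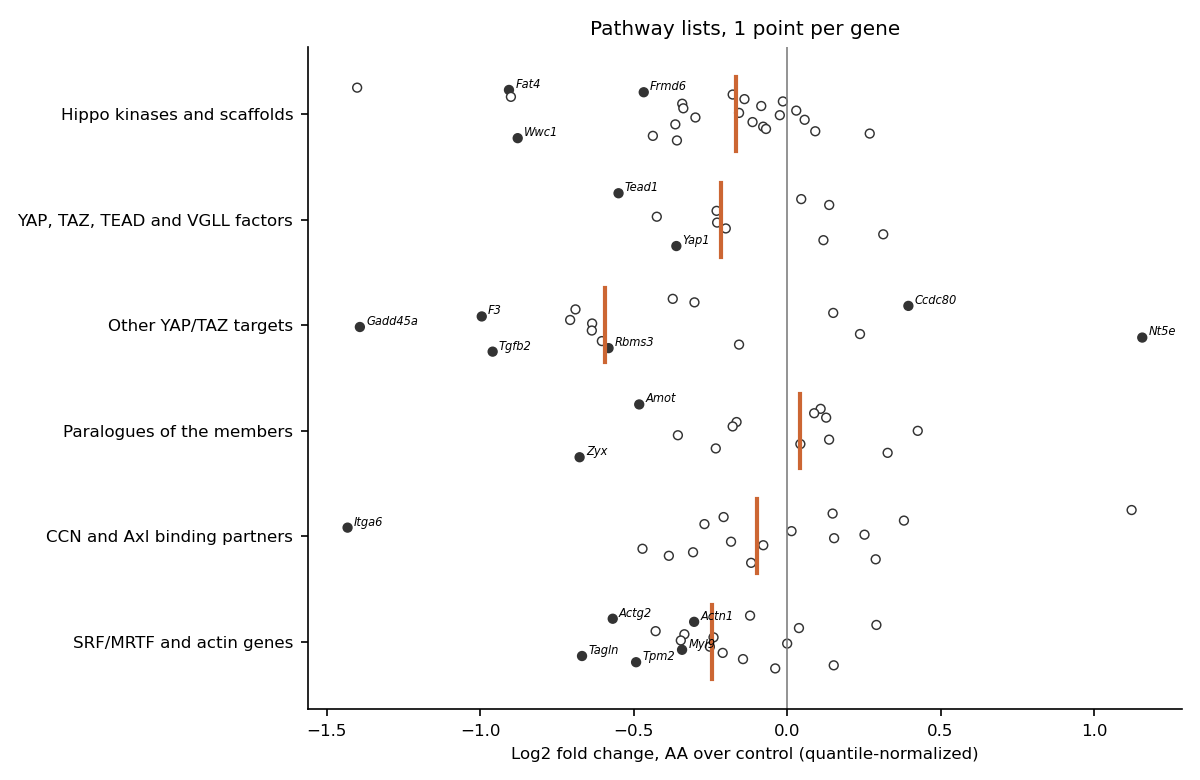
Log2 fold change, AA over control, of the brightest probe set of each gene in 6 pathway lists, 1 point per gene, with an orange bar at the list median. Filled, named points passed an adjusted p of 0.05 from limma. The further YAP/TAZ targets have the lowest median, -0.59.

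The genes whose signals ran most like those of Ankrd1 over the 6 arrays, among 10821 genes above the median signal, were Nat10, Thap12, Celf4, Mllt11 and Eps8, with Pearson correlations of 0.996 to 1.000. Their log2 fold changes were between -1.32 and -0.36, and 387 genes correlated above 0.95. For Ccn2, with its high replicate 1 arrays, they were Cdk14, Pcgf3, Supt3, Vhl and Gpr158, at 0.977 to 0.987, and 32 genes were above 0.95. All 6 arrays enter both correlations, so the difference between the groups is part of them.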

How the data were processed

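Cultures of MC3T3-E1 cells, 3 control and 3 with AA, gave 6 Affymetrix mouse 430 2.0 arrays. The authors deposited linear intensity values that the submitters' processing notes credit to MAS5, and every array has a trimmed mean of 150 (2% off each end). The paper's methods also describe quantile normalization and GC-RMA, which these values do not carry. The table has no detection calls. The number of arrays limits the precision.

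The 64 control probe sets were left out, quantile normalization was applied to log2 values of the remaining 45037, and these were fitted with limma 3.58.1 (R 4.3.3), with condition, the replicate number as a block (the methods name paired tests) and a variance trend. p-values were Benjamini-Hochberg adjusted across the array and called under 0.05. By GEO's annotation of the platform, 34945 probe sets carry 1 gene symbol, 932 more than 1 and 9160 no symbol. The files name no genome build. Symbols were looked up through Entrez identifiers in RefSeq's GRCm38.p6 table, which also gave the promoters. Arrays of this size were also simulated, with 200 changed probe sets and no replicate effect. There 13% of calls were false, above the nominal threshold, and from 23.2% (1.5-fold) to 52% (4-fold) of planted changes were recovered. The real fit called 2343 probe sets, so these shares may not carry over. Calls close to the threshold are uncertain.

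The 10 genes and all gene lists were chosen with earlier results of these data known. Named genes are all probe sets of the 10 genes, up to 4 genes per list and direction with the smallest p among those past the threshold, YAP, TAZ, TEADs, Lats1, Gas6 and the paralogues, and the 5 genes most correlated with Ankrd1 and Ccn2. Stk3, Map4k2, Map4k3, Runx2, Spp1, Bglap and Plin1, among others, had no probe set named for them alone and were not analysed here. Alternatives were no replicate block, signals as deposited, median centring, 50 added to signals, probe sets above the median signal, no variance trend, the methods' t-test, replicates or arrays left out (with quantile normalization repeated), and averaging the probe sets of each gene.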

Additional observations from a re-analysis of the deposited data

How the results depend on the processing

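None of the 9 calls among the 23 probe sets changed direction under any of the 17 alternatives run, nor did the calls of the named pathway genes. Direction could not change in the settings that keep the fitted fold change as it is. These were no replicate block with all 6 arrays, no variance trend, probe sets above the median signal and the methods' t-test. Counts moved more. Among the 23 probe sets, median centring and 50 added to every signal each left 1 higher in place of 2. Without the variance trend, and by the methods' t-test after Benjamini-Hochberg adjustment, 0 probe sets passed in either direction, of the 23, of the pathway lists or of the whole array. In the limma fit without the trend 6 of the 23 were lower and 2 higher at an unadjusted p under 0.05, and by the methods' t-test 7 and 1. For the lists these counts were 15 and 1 without the trend and 22 and 3 by the t-test, and over the array 2616 and 2587, and 2827 and 2612. At the methods' unadjusted p of 0.01 with a fold of at least 1.5, that t-test gave 0 higher and 3 lower among the 23, 0 and 3 in the lists, and 363 and 345 over all probe sets. With 50 added, 788 probe sets were higher and 655 lower in place of 1219 and 1124, and 11 list genes fell in place of 17. The lists had 0 genes higher without the replicate block and 1 after median centring, in place of 2. Leaving out replicates or single arrays gave 5 to 7 of the 23 lower and 0 to 2 higher, 5 to 15 list genes lower and 0 to 3 higher, and 339 to 960 probe sets lower and 381 to 1162 higher over the array. The lowest counts over the array came without AA replicate 2 and the block, and the lowest count of list genes that fell, 5, without control replicate 2 and the block. Median centring gave 842 higher and 1291 lower calls over the array. Dropping the replicate block gave 1089 and 1039, and moved the 7 lower calls of the 23 to 6, losing Ccn2. Same-numbered control and AA arrays deviated from their group means with correlations of 0.017, 0.004 and 0.010 for replicates 1, 2 and 3 over all probe sets, and of 0.182, 0.025 and 0.092 over those above the median signal. Replicate 1 gave the highest of the 9 pairs on either measure, while AA replicate 2 correlated best with control replicate 3 on both. Not every pair passed 0.1, so pairing by number was not established, and calls that need the block, such as Ccn2 and Nt5e, depend on it. Depth in the sense of counts does not apply. Probe sets below the median signal (1 of Axl and 2 of Lats2) limit what can be said of them, since their signals are dim. Their log2 fold changes shrank toward 0 with 50 added, which must happen to dim signals, so nothing is read from that.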
